A study of Capra hircus with 29 samples.

Results

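The nuclear genes that copy and transcribe the mitochondrial genome or shape the mitochondrial network were followed in goat oocytes. They were taken by symbol from the table of FPKM (fragments per transcript length and mapped fragments) and are 10 of its 21343 genes: *TFAM*, *TFB2M*, *POLRMT*, *POLG*, *POLG2*, *MFN1*, *MFN2*, *OPA1*, *DNM1L* and *FIS1*. Each symbol stood on 1 row of the table, and all 10 passed the filter on low values in every comparison. The study compared oocytes of Ji'ning grey goats from a high fertility and a low fertility population. The deposited description sets these at litters above 3 and below 2 kids, whereas the study's methods set them at 3 or more and 2 or fewer. No sample was treated, no allele was altered and the age of the goats is not given in the sources used here. Oocytes came from large, medium and small follicles, which gives the groups HLO, HMO and HSO (high fertility) and LLO, LMO and LSO (low fertility), with 5 samples each and 4 of HSO, 29 in all. By the methods, which state it for the high fertility population, oocytes of a stage were pooled over the goats and then divided into samples of a few oocytes. The samples of a group are thus divisions of a pool and not separate animals, and every p-value measures only the spread between them, which may be partly technical.

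The mitochondrial genome is transcribed by the RNA polymerase POLRMT together with the packaging and initiation factor TFAM and the initiation factor TFB2M. It is copied by polymerase gamma, whose catalytic subunit is POLG and whose accessory, processivity subunit is POLG2. Mitochondria fuse through the outer membrane mitofusins MFN1 and MFN2 and the inner membrane GTPase OPA1, and divide when the GTPase DNM1L is brought to the outer membrane, where FIS1 sits. Oocytes hold very many copies of the mitochondrial genome, and these supply the early embryo.

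The samples carried high levels of several oocyte markers, and most markers of other follicle cells were low. The summed FPKM of the oocyte markers (*GDF9*, *BMP15*, the *ZP* genes and others, 9 of 10 symbols in the table) ran from 423 in LLO-2 to 9066 in HSO-5. Of these 9, *ZP3* had the highest mean, 1406 FPKM. *NLRP5* was above 0.5 FPKM in only 5 samples, and *OOSP2* was at 0 in 28. The granulosa markers summed to 0.133 to 7.48 FPKM, with *AMH* and *HSD17B1* at 0 in every sample, and the leukocyte markers to 0.149 to 5.72. The granulosa marker *INHBA* reached 5.21 FPKM and the leukocyte marker *LAPTM5* 5.72. The theca markers summed to 4.35 to 39.0 FPKM, nearly all of it *STAR*, while *INSL3* was at 0 throughout. *STAR* had 4.32 FPKM or more in every sample, and *LUM* reached 1.74. Total FPKM ran from 347806 to 490048 in 28 samples and was 222697 in LMO-2, and 6646 to 8689 genes were above 0.5 FPKM per sample. Depth is not in the table, so no counting error is given. In pooled oocytes, fewer cells of a type and less RNA per cell cannot be told apart.

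The sum of the 13 protein-coding genes of the mitochondrial genome, against which the 10 genes were set, held 1 sample apart. LLO-4 had a summed level of 11.2 FPKM, and the other 28 samples had 98.8 (HMO-5) to 5919 (HSO-3), with a median of 424 over all 29. Its distance to the next sample was 34.8% of the whole range of log2 sums. Correlations with the sum therefore leave out LLO-4. The slopes named for single genes of the 10 and the HLO and LLO difference of the sum are given with and without it.

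Mean levels of the 10 genes ran from 1.09 to 150 FPKM, and the accessory subunit of polymerase gamma stood far above the catalytic one. In order of mean level over the 29 samples, *FIS1* had 150 ± 66.6 FPKM (SD, n = 29), *POLG2* 68.2 ± 19.4, *OPA1* 14.9 ± 6.74, *DNM1L* 7.61 ± 4.26 and *MFN1* 7.27 ± 2.10. The lower 5 were *MFN2* with 4.93 ± 4.13 FPKM, *TFAM* with 2.74 ± 1.52, *TFB2M* with 2.45 ± 2.78, *POLG* with 1.70 ± 1.02 and *POLRMT* with 1.09 ± 0.582. *FIS1* was above 95.3% of the 9692 genes tested over all samples and *POLG2* above 92.1%, whereas *POLG* was above 40.5% and *POLRMT* above 30.6%. Neighbours in this order did not always differ beyond their spread. *POLG2* was above *OPA1* in 29 of 29 samples and *OPA1* above *DNM1L* in 28, but *DNM1L* was above *MFN1* in only 16 and *TFB2M* above *POLG* in only 16. *FIS1* was above *POLG2* in 23 samples, *MFN1* above *MFN2* in 25, *MFN2* above *TFAM* in 19, *TFAM* above *TFB2M* in 20 and *POLG* above *POLRMT* in 26.

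**Figure D1:**
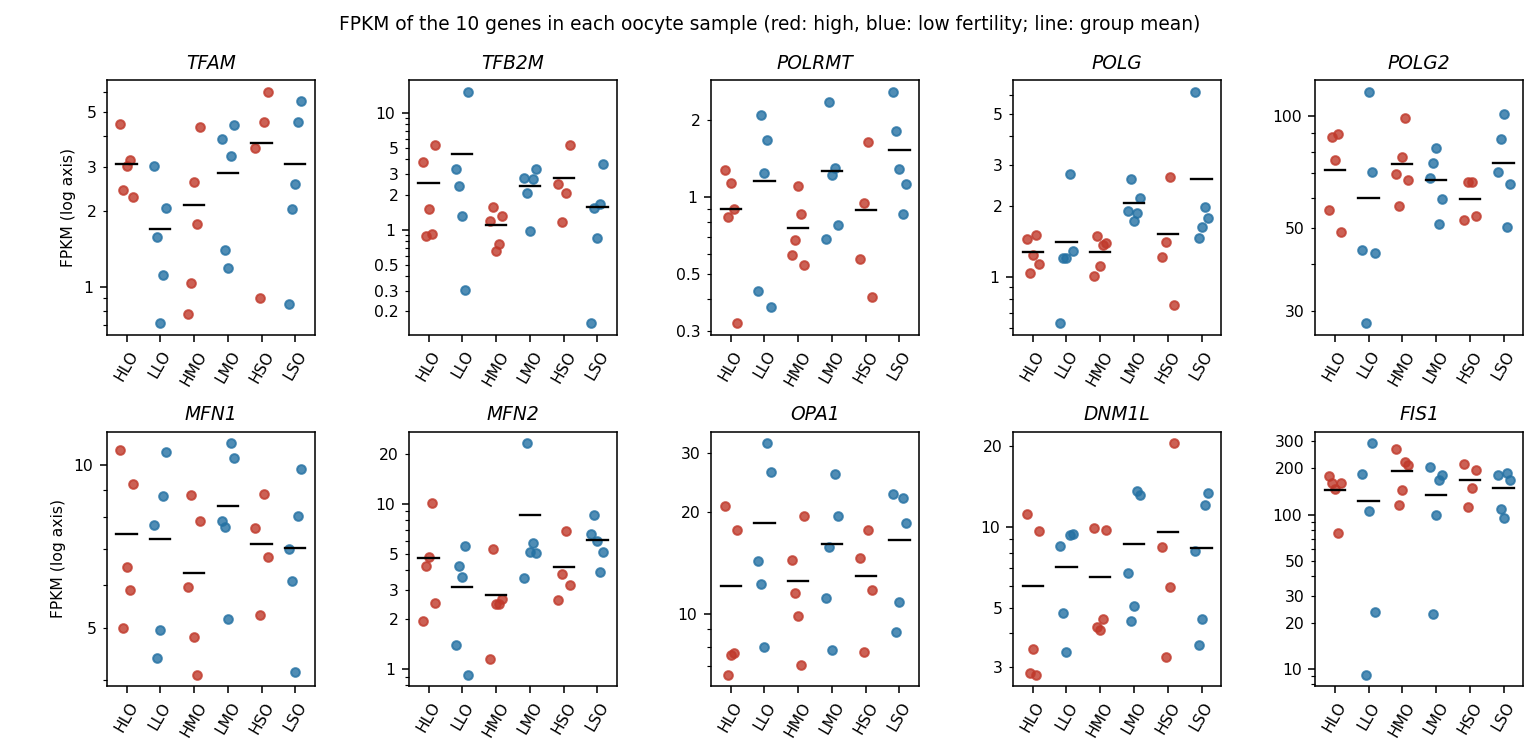
FPKM of each of the 10 genes (y axis, log scale) in every sample of the 6 groups (x axis), with red points for high and blue points for low fertility and a black line at the group mean. *POLG2* sits between 27.8 and 116 FPKM and *POLG* between 0.631 and 6.21, and single samples stand apart in *TFB2M* (15.1 in LLO-5), *MFN2* (23.3 in LMO-2) and *POLG* (6.21 in LSO-1).

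Among the transcription genes, *TFAM* (ENSCHIG00000014685) ran from 0.714 FPKM in LLO-3 to 6.02 in HSO-5. Group means were 3.09 ± 0.874 in HLO, 1.70 ± 0.901 in LLO, 2.11 ± 1.45 in HMO, 2.86 ± 1.48 in LMO, 3.76 ± 2.16 in HSO and 3.10 ± 1.90 in LSO. *TFB2M* (ENSCHIG00000017458) varied most of the 10, with a coefficient of variation of 113%, above that of 89.4% of the genes tested. It ran from 0.159 FPKM in LSO-1 to 15.1 in LLO-5 and was above 0.5 FPKM in 27 of 29 samples. *POLRMT* (ENSCHIG00000013267), the polymerase itself, ran from 0.323 FPKM in HLO-5 to 2.57 in LSO-1. It was below 1 FPKM in 15 samples and above 0.5 FPKM in 25, so it is the gene read at the lowest level.

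Of polymerase gamma, *POLG* (ENSCHIG00000010897) ran from 0.631 FPKM in LLO-1 to 6.21 in LSO-1 and *POLG2* (ENSCHIG00000017524) from 27.8 in LLO-2 to 116 in LLO-3. The level of *POLG2* divided by that of *POLG*, both per transcript length, had a median of 43.1 and ran from 11.3 in LSO-1 to 96.7 in LLO-3. *POLG2* was higher in 29 of 29 samples. It was also among the steadiest genes of the table, with a coefficient of variation of 28.4%, and only 1.51% of the genes tested had a lower one. By group, its mean lay between 59.7 ± 7.67 FPKM in HSO and 74.8 ± 19.6 in LSO.

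In the fusion machinery, *OPA1* (ENSCHIG00000014105) was above *MFN1* in 29 of 29 samples, with a median ratio of 1.92. *MFN1* (ENSCHIG00000021326) was steady, with a coefficient of variation of 28.9% and a range of 4.09 to 10.96 FPKM, and 1.70% of the genes tested varied less. *MFN2* (ENSCHIG00000016424) had a coefficient of variation of 83.8%, from 0.927 FPKM in LLO-5 to 23.3 in LMO-2. The ratio of *MFN1* to *MFN2* had a median of 1.65 and went from 0.330 in LMO-2 to 11.4 in LLO-5. In LSO it was above 1 in 3 of 5 samples, and in LLO and HMO in 5 of 5.

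In the fission machinery, *DNM1L* (ENSCHIG00000024000) ran from 2.81 FPKM in HLO-4 to 20.5 in HSO-5, and *FIS1* (ENSCHIG00000022425) from 9.25 in LLO-2 to 289 in LLO-4. *FIS1* held 3 samples far below the rest: LLO-2 with 9.25 FPKM, LMO-2 with 22.9 and LLO-5 with 23.4, while the other 26 had at least 76.2. All 3 were from the low fertility population. LLO-2 also had the fewest genes above 0.5 FPKM of all samples, 6646, and LMO-2 the lowest total FPKM, 222697. LLO-5 was at neither extreme, with 7699 genes and a total of 386193. LLO-2 and LMO-2 share a label number that HSO lacks. The part of these in the low *FIS1* values was not tested. The same 3 samples were the lowest in 380 of the 9692 genes tested, or 3.92%, so the drop was shared with other genes. Without them, *FIS1* was at 144 ± 39.6 FPKM in HLO (n = 5) and 192 ± 91.9 in LLO (n = 3), and at 190 ± 59.8 in HMO (n = 5) and 162 ± 44.1 in LMO (n = 4).

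The first comparisons asked which genes differed between the fertility populations at each follicle size. None of the 10 genes passed an adjusted p of 0.05 (limma with a trend on log2(FPKM + 1), Benjamini-Hochberg over all genes tested) in any stage, where 0 of 8328 genes passed between HLO and LLO (0%), 6 of 8390 between HMO and LMO (0.0715%) and 1 of 8376 between HSO and LSO (0.0119%). Counts at an unadjusted p under 0.05 are therefore given beside their share over all genes. Differences are high minus low fertility on the log2(FPKM + 1) scale, which understates the change of low genes such as *POLRMT*, *POLG* and *TFB2M*.

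Medium follicles gave the most differences, all of them lower in HMO. Of the 10 genes, 3 had an unadjusted p under 0.05, 1 each from transcription, replication and fusion, against 8.67% of all genes tested in either direction and 3.58% lower in HMO. Counted by sign alone, 8 of the 10 were lower in HMO, against 56.5% of all genes tested, and their median difference was -0.33 beside -0.07 over all genes.

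*POLG* was the only one of the 10 whose samples did not overlap between HMO and LMO. It had 1.002, 1.49, 1.12, 1.37 and 1.40 FPKM in HMO-1 to HMO-5. In LMO-1 to LMO-5 it had 1.90, 2.63, 1.73, 1.87 and 2.18 FPKM. Every LMO sample was thus above every HMO sample, as in 0.858% of the genes tested. The difference was -0.43 (SE 0.19), with an unadjusted p of 0.0403 and an adjusted p of 0.563 by limma. It kept an unadjusted p under 0.05 in 2 of the 10 fits that left out 1 sample, those without HMO-2 and LMO-3, and reached 0.0991 without HMO-1.

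*MFN2* showed the largest difference of the 3. It had 1.15, 5.33, 2.47, 2.48 and 2.67 FPKM in HMO-1 to HMO-5. In LMO-1 to LMO-5 it had 3.57, 23.3, 5.11, 5.81 and 5.07 FPKM. HMO-2 lay among the LMO samples, and the other HMO samples lay below all of them. The difference was -1.11 (SE 0.45), with an unadjusted p of 0.0282 and an adjusted p of 0.521 by limma. Without LMO-2, whose total FPKM was the lowest of all samples, it was -0.69 (unadjusted p = 0.0452 by limma), and without HMO-1 the p was 0.0742.

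*TFB2M* had 1.19, 1.58, 0.659, 0.762 and 1.31 FPKM in HMO-1 to HMO-5. In LMO-1 to LMO-5 it had 2.79, 2.05, 0.966, 2.72 and 3.33 FPKM. All but LMO-3 lay above every HMO sample. The difference was -0.65 (SE 0.25), with an unadjusted p of 0.0224 and an adjusted p of 0.491 by limma. The unadjusted p was between 0.0501 and 0.0604 when HMO-3, HMO-4, LMO-1 or LMO-5 was left out.

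The other 7 genes had overlapping samples in HMO and LMO and unadjusted p-values of 0.138 (*POLRMT*) and above. *POLG2* differed by 0.14 (95% interval -0.51 to 0.78), and *FIS1* by 0.76 (-0.44 to 1.95), which became 0.21 without LMO-2. The theca marker sum also separated these groups, at 8.87 to 15.9 FPKM in HMO and 20.1 to 39.0 in LMO, almost wholly through *STAR*, with *INSL3* at 0 in every sample. Its part in the differences was not tested.

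In large follicles, 0 of the 10 genes had an unadjusted p under 0.05, against 4.14% of all genes tested. *TFAM* came nearest. It had 4.49, 2.43, 3.05, 3.21 and 2.29 FPKM in HLO-1 to HLO-5. In LLO-1 to LLO-5 it had 3.04, 1.58, 0.714, 1.12 and 2.06 FPKM. HLO was above LLO in 23 of the 25 pairs of samples, and the groups overlapped through LLO-1. The difference was 0.64 (SE 0.32), with an unadjusted p of 0.0697 and an adjusted p of 0.828 by limma. Of the 10 fits that left out 1 sample, 1 had an unadjusted p under 0.05 by limma, 0.0298 without LLO-1. The unadjusted p was 0.119 without LLO-4 and reached 0.164 without LLO-3. The theca marker sum was again apart, at 18.2 to 31.2 FPKM in HLO and 5.13 to 17.3 in LLO, and its part was not tested. *FIS1* differed by 1.04 (95% interval -0.72 to 2.81), the widest interval of the 10, with LLO holding both the lowest and the highest sample, and became 0.36 without LLO-2.

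In small follicles, 0 of the 10 genes had an unadjusted p under 0.05, against 4.41% of all genes tested. The lowest p was 0.133, for *POLRMT*, with 0.893 ± 0.546 FPKM in HSO (n = 4) and 1.53 ± 0.675 in LSO (n = 5), a difference of -0.42 (95% interval -0.996 to 0.15). The HSO mean of *MFN1* was 7.13 ± 1.495 FPKM beside an LSO mean of 7.02 ± 2.12, and the interval of its log2 difference, -0.64 to 0.73, allowed changes in both directions.

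**Figure D2:**
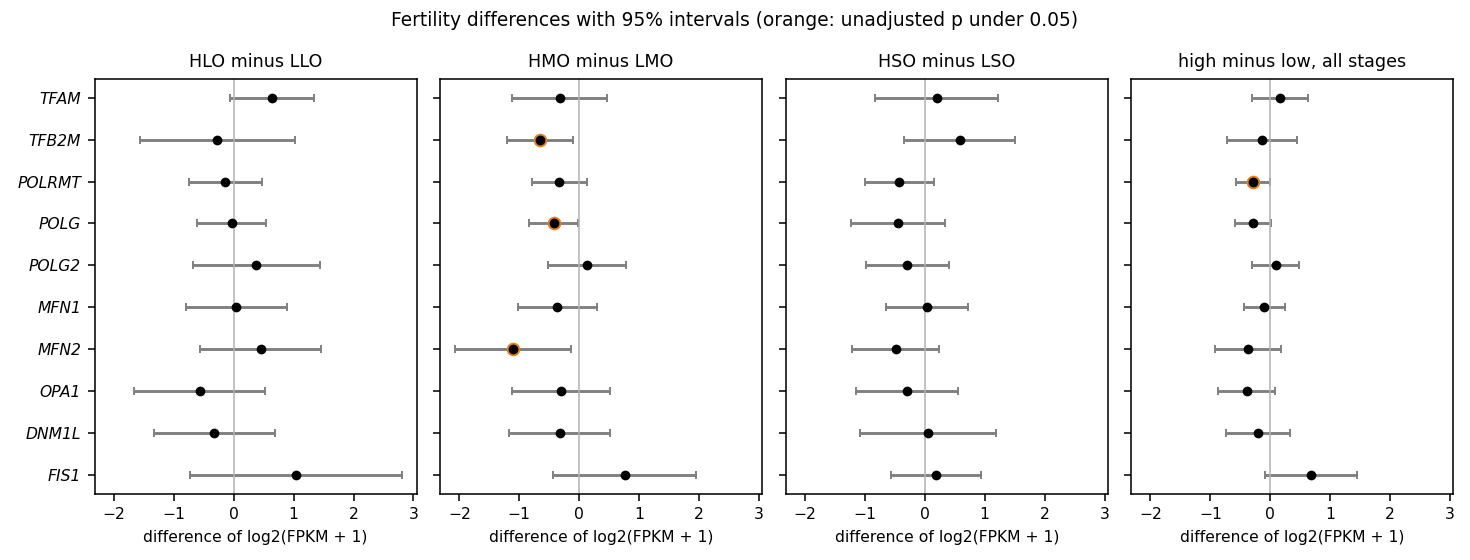
Differences of log2(FPKM + 1), high minus low fertility (x axis), for the 10 genes (y axis) in large, medium and small follicles and over all stages, with 95% intervals. Orange rims mark an unadjusted p under 0.05: *TFB2M*, *POLG* and *MFN2* between HMO and LMO, and *POLRMT* over all stages.

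Over all stages together, with stage as a covariate, 1 of the 10 genes had an unadjusted p under 0.05, against 9.99% of the 9692 genes tested and 6.59% lower in high fertility, and 0 passed an adjusted p of 0.05 (0.0103% of all genes did). *POLRMT* was lower in the high fertility samples, with a mean of 0.845 against 1.32 FPKM and a difference of -0.29 (SE 0.14, unadjusted p = 0.0452, adjusted p = 0.495 by limma). Its sign was the same in each stage, at -0.14, -0.33 and -0.42 in large, medium and small follicles. The unadjusted p stayed under 0.05 in 13 of the 29 fits that left out 1 sample and was 0.0873 without HSO-5. Under other processing the difference ran from -0.51 to -0.08, with an unadjusted p under 0.05 in 4 of 9 settings and of 0.468 with array weights. *POLG* followed with -0.30 (unadjusted p = 0.0534 by limma), and *FIS1* with 0.68 (unadjusted p = 0.0801), which became 0.45 without LLO-2.

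The next comparison asked whether the 10 genes changed with follicle size. By limma's F-test between the 3 stages, 0 of the 10 reached an unadjusted p of 0.05, against 1.66% of all genes tested, and the adjusted p was 0.99998 for each. *POLG* had the lowest unadjusted p, 0.240. In the test of whether the fertility difference itself depended on stage, 1 of the 10 had an unadjusted p under 0.05, against 7.89% of all genes. *MFN2* was 0.45 higher in HLO than in LLO, and differed by -1.11 in medium and -0.49 in small follicles (unadjusted p = 0.0465, adjusted p = 0.617 by limma). Without LLO-5 or LMO-2 the unadjusted p was 0.107 or 0.0861.

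The genes were then set against the summed level of poly(A)-selected transcripts from the genome they serve. The summed level of the mitochondrially encoded genes was lower in HMO than in LMO. HMO-1 to HMO-5 had 321, 353, 248, 145 and 98.8 FPKM. LMO-1 to LMO-5 had 821, 762, 4611, 345 and 1743 FPKM. Only LMO-4 fell within the range of HMO. The 13 genes did not move alike. *ATP8* had 99.0, 1147 and 361 FPKM in LMO-2, LMO-3 and LMO-5. It had 2.29 and 0 in LMO-1 and LMO-4, and at most 6.77 in HMO. *ND6* had 0.265 to 1.49 FPKM in HMO and 0.728 to 56.1 in LMO. *ND2* had 25.4 to 63.2 FPKM in HMO and 23.6 to 177 in LMO. The difference of mean log2 sums was -2.41, or 0.188-fold, with an exact two-sided permutation p of 0.0159 and 0.0476 after adjustment over the 3 stages. Permuted within pairs of equal label number, the exact p was 0.0625, the smallest that 5 pairs allow.

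In the other stages the sums overlapped widely. HLO and LLO differed by 1.04 (exact permutation p = 0.508, two-sided), which became 0.03 without LLO-4, and HSO and LSO by 0.70 (exact permutation p = 0.595). *ATP8*, a short gene that overlaps *ATP6*, was listed at 0 in 9 samples and made up 13.003 to 24.9% of the sum in 10 others, with 4.66% as the highest share in the rest. With *ATP8* left out of the sum, an alternative chosen after seeing the data, HMO and LMO differed by -2.24 with the same exact permutation p of 0.0159.

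Across samples, the level of none of the 10 genes followed this sum closely. Over the 28 samples without LLO-4, Pearson's r of log2(FPKM + 1) with the log2 sum ran from -0.09 for *FIS1* to 0.16 for *MFN2*. The permutation p was 0.417 or more for each of the 10, and the adjusted p over 9679 genes was 0.9999 for each. Of all genes tested, 1.98% had a permutation p under 0.05. By Spearman's rho, *POLG* had 0.387 (permutation p = 0.0418, adjusted p = 0.99996, against 3.07% of all genes), while its r was 0.11.

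*TFAM*, the factor that packs the genome, had r = 0.15 and rho = 0.27 (permutation p = 0.453 and 0.165). Leaving out HSO-3 and LMO-3, the samples with the sums farthest from the median, r was 0.45 over 26 samples, so the pooled value turned on these 2. Both carried the label number 3. Without them, r also moved from 0.11 to 0.27 for *TFB2M*, 0.06 to 0.26 for *MFN1*, 0.005 to 0.24 for *OPA1* and -0.02 to -0.10 for *POLG2*. Among the 6 samples with the number 1, *TFAM* had an r of 0.84 (rho 0.94). Among the 6 with the number 3 it had -0.19 (rho -0.09), and with the number 5, 0.35 (rho 0.31). *TFAM* was not alone, as with the number 1 *TFB2M* had an r of 0.86 and *MFN1* of 0.76. With the number 3 these had -0.15 and -0.24, and with the number 5, 0.20 and 0.51. All are descriptions with no test.

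**Figure D3:**
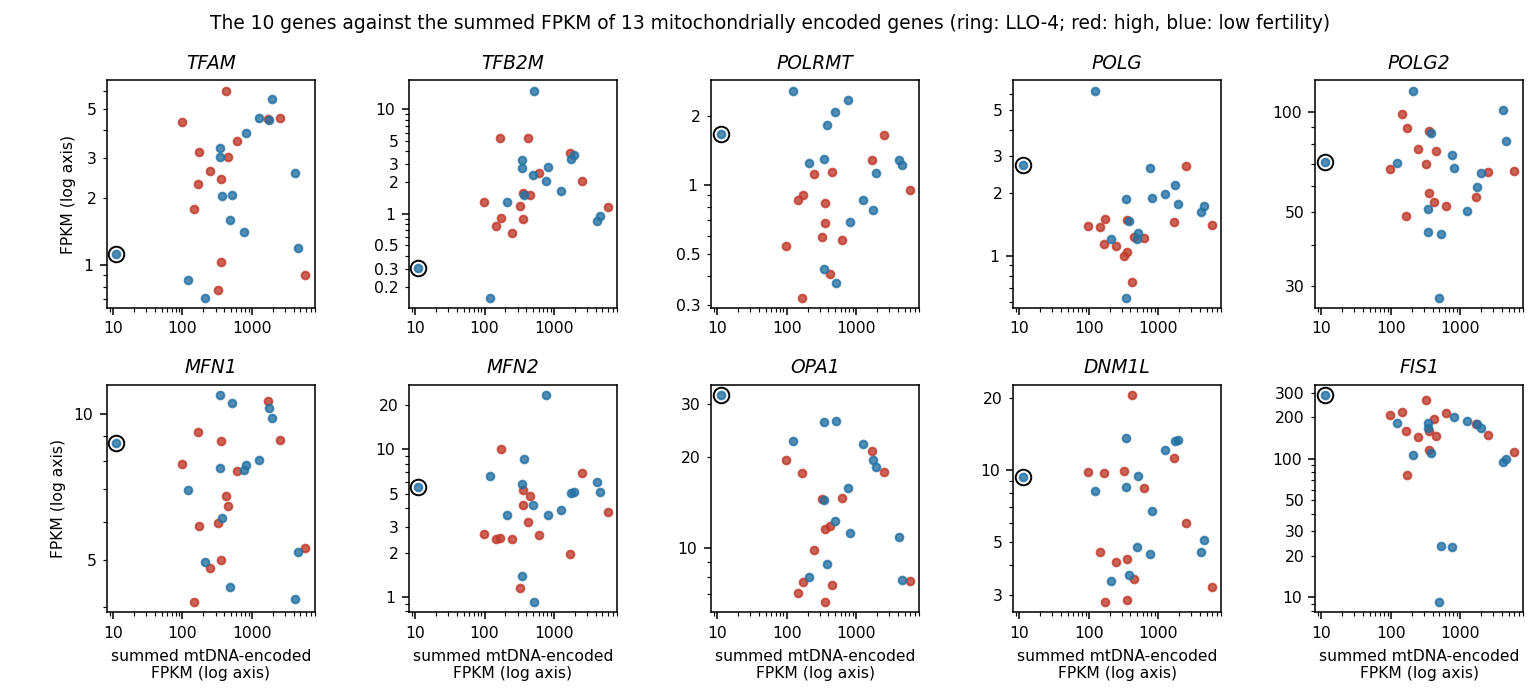
FPKM of each of the 10 genes (y axis, log scale) against the summed FPKM of the 13 mitochondrially encoded genes (x axis, log scale) in the 29 samples, red for high and blue for low fertility, with LLO-4 ringed. LLO-4 lies at 11.2 FPKM on the x axis, left of all other samples, and over the other 28 samples r lies between -0.09 (*FIS1*) and 0.16 (*MFN2*).

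As a slope within the 6 groups, over all 29 samples, 0 of the 10 genes had an unadjusted p under 0.05 by limma, against 18.5% of the 9679 genes tested, and 0 an adjusted p under 0.05 (0.0103% of all genes did). The nearest were *FIS1* with a slope of -0.24 log2 units per doubling of the sum (unadjusted p = 0.0568) and *POLG* with -0.09 (unadjusted p = 0.0585). Without LLO-4 these slopes were -0.11 (unadjusted p = 0.432 by limma) and -0.06 (unadjusted p = 0.323). LLO-4, with the lowest sum, had the highest *FIS1* level of all samples and also the highest *OPA1* level, 32.1 FPKM. Without LLO-4 and without the group means, an alternative chosen after seeing the data, again 0 of the 10 passed, against 185 of 9580 genes.

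Among themselves, the genes fell into sets that rose and fell together across the 29 samples. Of the 45 pairs, *MFN1* and *OPA1*, the fusion partners of the outer and inner membrane, had the highest r, 0.78, with rho = 0.78. Leaving out the 2 samples farthest in *MFN1* left r at 0.78, and taking deviations within label numbers gave 0.63. Of all genes tested, 89 had a higher r with *MFN1* than *OPA1* did, and 553 had a higher r with *OPA1* than *MFN1* did. The fission GTPase *DNM1L* went with both, at r = 0.75 with *OPA1* and 0.67 with *MFN1*, which became 0.58 and 0.35 within label numbers. For *OPA1* and *DNM1L* a high r was common, since 792 genes had a higher one with *OPA1* than *DNM1L* did. With *DNM1L*, 1783 genes had a higher r than *OPA1* did and 2693 a higher r than *MFN1* did. With *MFN1*, 847 had a higher r than *DNM1L* did.

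A different set joined *POLRMT* with *MFN2* (r = 0.68, rho = 0.69) and with *POLG* (r = 0.66, rho = 0.56). With *POLRMT*, 215 genes had a higher r than *MFN2* did and 279 a higher r than *POLG* did. From the other side, 368 genes exceeded *POLRMT* with *MFN2* and 443 with *POLG*. *POLG2* ran against *TFB2M* (r = -0.60, rho = -0.75), *OPA1* (r = -0.51) and *DNM1L* (r = -0.51). Such values were common for *POLG2*, since 8.83%, 18.4% and 18.7% of the genes tested had a still lower r with it. The 2 subunits of polymerase gamma hardly followed each other, with r = 0.15, and neither did the 2 mitofusins, with r = -0.05. The permutation p adjusted over all genes tested with the first gene was 0.000407 for *MFN1* with *OPA1*, 0.00176 for *POLRMT* with *MFN2* and 0.00530 for *POLG2* with *TFB2M* (100000 permutations of the samples). The permutation p of rho was 1e-05, the smallest these can give, for *MFN1* with *OPA1*, and 8e-05 for *POLRMT* with *MFN2*. All these values share their libraries and the composition of each sample.

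**Figure D4:**
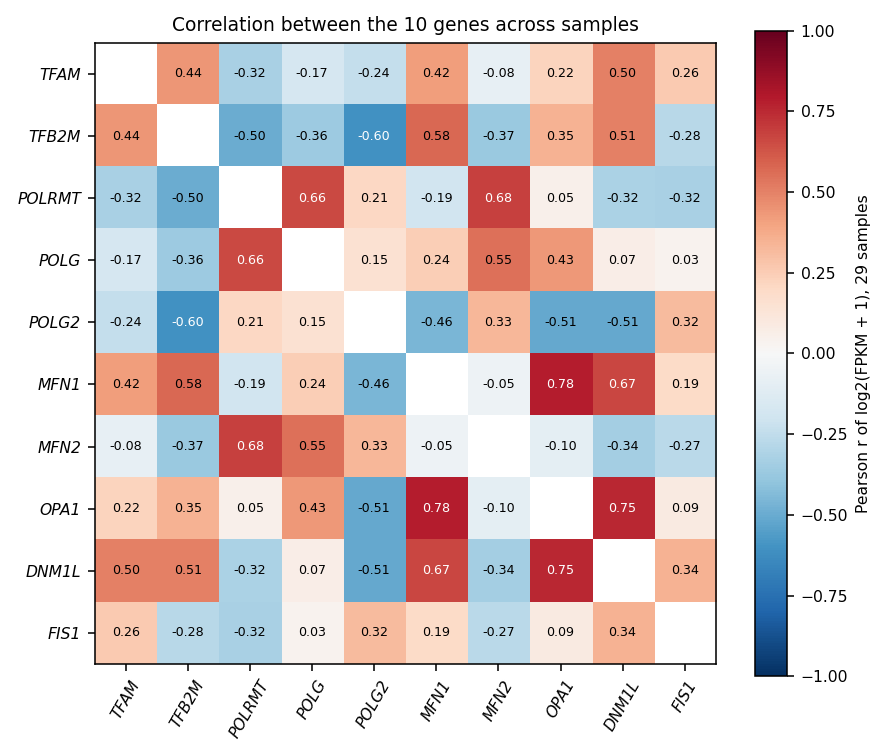
Pearson's r between each pair of the 10 genes over log2(FPKM + 1) of the 29 samples (rows and columns are genes, the colour scale runs from -1 in blue to 1 in red). *OPA1*, *MFN1* and *DNM1L* form a block of 0.67 to 0.78, *POLRMT* goes with *MFN2* and *POLG* at 0.68 and 0.66, and *POLG2* is at -0.60 with *TFB2M*.

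For each of the 10, the gene of the whole table with the most like pattern was looked up by Pearson's r over the 29 samples. The highest were 0.98 for *FIS1* with *LOC102172949*, 0.96 for *OPA1* with *RLF* and 0.95 for *DNM1L* with *RARS*, the cytosolic arginyl-tRNA synthetase. *TFB2M* had *TMEM27* at 0.94, *POLG2* had *XRCC5*, the Ku80 protein of DNA end joining, at 0.92, and *MFN2* had the transcription factor *TCF3* at 0.92. *MFN1* had *DNAH11* at 0.91, *POLG* had *MID1* at 0.89 and *POLRMT* had *KCMF1* at 0.86. *TFAM* had the loosest match, the phosphatase *OCRL* at 0.73, and no gene above 0.8, whereas 1279 genes were above 0.8 with *DNM1L* and 423 with *OPA1*.

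Levels also went with the number that ends the sample label, a split chosen after the values were seen and given with no test. *DNM1L* had 10.7 ± 3.66 FPKM in the 12 samples numbered 1 or 5 and 3.98 ± 0.703 in the 11 numbered 2 or 3. The ranges, 6.75 to 20.5 and 2.85 to 5.08 FPKM, did not overlap, but how many of all genes separate in this way was not computed. As 1279 genes had an r above 0.8 with *DNM1L*, its pattern was widely shared. The 6 samples numbered 4 spanned both, at 8.05 ± 4.31 FPKM for *DNM1L* (2.81 to 13.6) and 7.08 to 32.1 FPKM for *OPA1*. *OPA1* had 17.6 ± 4.51 against 9.72 ± 2.72 FPKM, and *MFN1* 8.45 ± 1.60 against 5.71 ± 1.44, with overlapping ranges. *FIS1* had 180 ± 56.2 against 102 ± 47.3 FPKM, *TFB2M* 3.98 ± 3.84 against 1.35 ± 0.527 and *TFAM* 3.45 ± 1.69 against 1.77 ± 0.803. Their ranges overlapped too. In the other direction, *MFN2* had 3.06 ± 1.75 FPKM in numbers 1 and 5 and 6.49 ± 5.79 in numbers 2 and 3. *POLG2* had 58.1 ± 10.05 and 77.5 ± 22.9, and *POLRMT* 0.807 ± 0.627 and 1.34 ± 0.522. *POLG* differed least, by 0.05 on the log2 scale. What the number stands for is not given in the sources used here. Numbers 1, 3, 4 and 5 occur in all 6 groups.

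**Figure D5:**
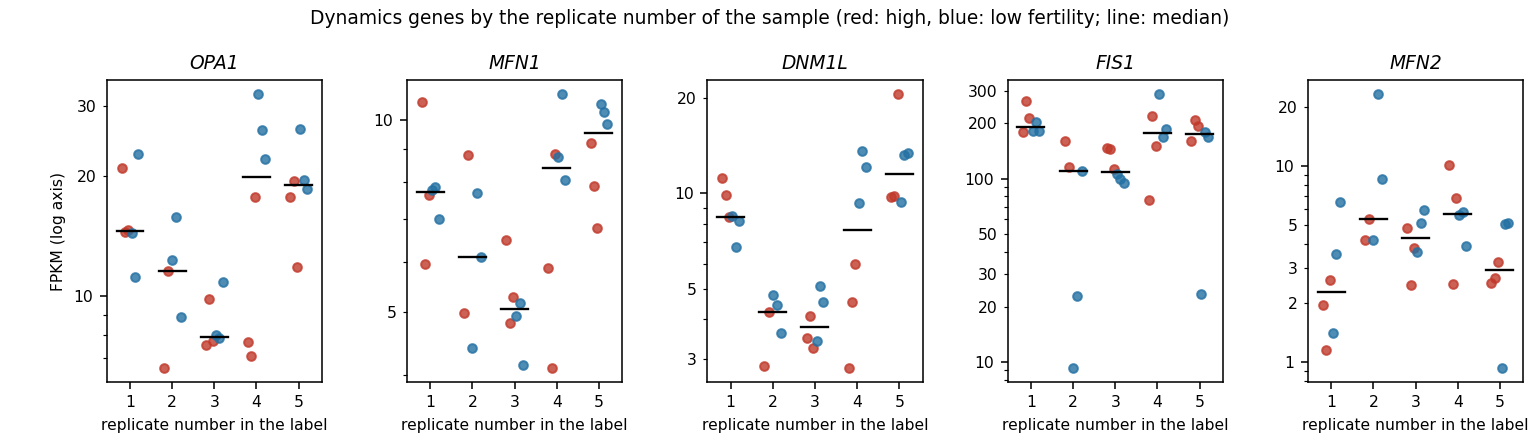
FPKM of 5 dynamics genes (y axis, log scale) by the replicate number in the sample label (x axis), red for high and blue for low fertility, with a line at the median. All *DNM1L* values of numbers 1 and 5 (6.75 FPKM and above) lie over those of numbers 2 and 3 (5.08 and below). *MFN2* runs the other way with overlapping ranges. How many of all genes separate as *DNM1L* does was not computed.

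Few related genes differed between the populations. Of 66 related symbols, 63 were in the table, on 76 rows, and 50 rows were tested between HMO and LMO. Of these, 2 had an unadjusted p under 0.05, both lower in HMO, against 8.67% of all genes tested. *MUL1*, a ubiquitin ligase of the outer membrane that acts on mitofusins, had 1.63 ± 0.601 FPKM in HMO and 4.71 ± 2.65 in LMO. Its ranges of 0.807 to 2.28 and 3.08 to 9.36 did not overlap, as in 0.858% of all genes tested in this direction. The difference of *MUL1* was -1.05 (SE 0.31, unadjusted p = 0.00463, adjusted p = 0.254 by limma). *TK2*, the mitochondrial thymidine kinase, differed by -0.55 (unadjusted p = 0.0244, adjusted p = 0.499 by limma) at levels of 0.334 and 0.998 FPKM. None of the 50 to 52 rows tested had an unadjusted p under 0.05 between HLO and LLO, between HSO and LSO, over all stages or between stages, where 4.14%, 4.41%, 9.99% and 1.66% of all genes did. In the interaction of fertility and stage, 3 of 52 did, against 7.89% of all genes. By list, the medians between HMO and LMO were 0.04 for replication and repair (8 tested), 0.17 for transcription and nucleoid (9 tested), -0.18 for nucleotide supply (6 tested), 0.03 for regulators of biogenesis (5 tested), 0.02 for fission (7 tested), -0.16 for fusion and OPA1 processing (9 tested) and -0.15 for mitophagy (6 tested), beside -0.07 over all genes. On the slope with the mitochondrial sum, 11 of 52 had an unadjusted p under 0.05, all with a negative slope, against 16.5% of all genes. This count includes LLO-4 and is not given without it. In the slope without group means, 1052 of 9679 genes had an unadjusted p under 0.05 by limma with LLO-4, and 185 of 9580 without it.

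Partners of the 10 genes also differed widely in level. *SLIRP*, which binds mitochondrial mRNA with *LRPPRC*, had 3170 ± 1529 FPKM (n = 29) on 1 of its 2 rows, while *LRPPRC* had 0.144 ± 0.134. *SSBP1*, which coats single-stranded mitochondrial DNA, had 163 ± 56.7 FPKM on the highest of its 3 rows, while the helicase *TWNK* did not exceed 0.505 FPKM and was above 0.5 in 1 sample. *TFB1M*, the relative of *TFB2M* that methylates ribosomal RNA, had 78.7 ± 55.0 FPKM. *ATAD3A* was listed at 0 in all 29 samples and the protease *LONP1* at 0 in 11. In the network genes, *MTFR2* had 45.1 ± 22.3 FPKM, the DNM1L receptor gene *MFF* 7.05 ± 3.76 on 1 of its 2 rows, the OPA1 protease *OMA1* 23.1 ± 13.9 and *PHB* 81.6 ± 60.5 on 1 of its 2 rows. Rows that share a symbol may share reads, so those values are uncertain.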

How the data were processed

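Poly(A)-selected RNA from 29 samples of a few oocytes each was sequenced. The authors kept uniquely matched reads with less than 5 mismatches, removed duplicates and deposited 1 table of FPKM, which Cufflinks 2.2.1 computed for each Ensembl gene in each sample; aligner and build are not given in the sources used here. FPKM is relative to mapped fragments and transcript length, so a few very abundant genes can shift all others, and poly(A) selection can affect mitochondrial transcripts.

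Columns were assigned to samples by name; 1 column of values matched no sample and was not used. No 2 samples held identical values. Genes with more than 0.5 FPKM in 4 or more samples of a comparison were tested on log2(FPKM + 1) with limma 3.58.1 (R 4.3.3) with a trend: within each stage, over all stages with stage as covariate, between stages, for the interaction, and for the slope on the log2 summed FPKM of 13 mitochondrially encoded genes. Adjustment was by Benjamini-Hochberg over all genes tested. In simulated data of independent genes, 200 were changed by 2 log2 units. The adjusted test recovered 51% of them between HLO and LLO, 81.5% between HMO and LMO and 64.5% between HSO and LSO. That change is larger than any difference between populations found for the 10 genes, so these shares do not give the power at their sizes. The sum and the correlations were tested by exact permutation, or by 100000 permutations above 9 values a group (two-sided; scipy 1.17.1). Alternatives were other pseudocounts, filters and scalings, array weights, a replicate block and leaving out each sample. All 10 genes are named, the related genes by unadjusted p, and the most like gene by r. The 10 genes and the lists were chosen with earlier results of these data known. Sequences and coordinates were not used here.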

Additional observations from a re-analysis of the deposited data

Results flagged for a closer look

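Of the 66 combinations of a group with a gene or the mitochondrial sum, 4 had 1 sample far from the others by Dixon's test, where chance gives about 3.3. *POLG* in LSO-1 was at 6.21 FPKM, beside 1.47 to 1.99 in the other LSO samples. *TFB2M* in LLO-5 was at 15.1 FPKM, beside 0.307 to 3.30 in the rest of LLO. *MFN2* in LMO-2 was at 23.3 FPKM, beside 3.57 to 5.81 in the rest of LMO. The summed mitochondrially encoded level in HLO-1 was 1684 FPKM, beside 166 to 447 in the rest of HLO.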

How the results depend on the processing

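With array weights, 1 of the 10 genes passed an adjusted p of 0.05 between HMO and LMO (*TFB2M*, adjusted p = 0.0126 by limma), 1 over all stages (*DNM1L*, 0.0473) and 3 on the slope (*OPA1*, 0.0303, *FIS1*, 0.0379, and *DNM1L*, 0.0196), and the cause was not tested. Array weights called 1011 of 8390 genes between HMO and LMO beside 6, 691 of 9692 over all stages beside 1 and 3117 of 9679 on the slope beside 1. Under every other alternative, 0 of the 10 passed in any comparison, and the same held when each sample was left out in turn, with a range of 0 to 0. At an unadjusted p under 0.05, the members counted ranged over all alternatives from 0 to 1 between HLO and LLO, 1 to 7 between HMO and LMO, 0 to 1 between HSO and LSO, and 0 to 4 over all stages. The summed mitochondrial level differed between HMO and LMO by -2.84 to -1.90 when a sample was left out, and by -2.41 with a permutation p of 0.0625 under the replicate block; between HLO and LLO the leave-one-out range was 0.03 to 1.42, and between HSO and LSO -0.0036 to 1.28. Samples of equal number did not deviate together in every pair: the correlation of deviations was over 0.1 in 10 of 14 pairs (-0.51 to 0.74), and 7 of 14 high fertility samples correlated best with their own number. With the replicate block, 127 genes beside 6 passed between HMO and LMO, and 0 of the 10. Another rescaling gave every sample the same total FPKM of the genes that are not mitochondrially encoded. As the mitochondrially encoded genes held at most 1.37% of total FPKM, it in effect evened out unequal totals, the lowest being 222697 in LMO-2. It moved the median of all genes between HMO and LMO from -0.07 to -0.25, and *POLG*, *MFN2* and *TFB2M* stayed lower in HMO. Among all genes at an unadjusted p under 0.05 between HMO and LMO, 427 were higher and 300 lower, but 285 and 484 after that rescaling and 604 and 212 with median-of-ratios factors. Over all stages these were 329 and 639, 186 and 1064, and 591 and 412. With median-of-ratios factors the unadjusted p between HMO and LMO was 0.106 for *POLG* and 0.0675 for *MFN2* by limma, and in 1 fit over all 6 groups it was 0.18 for *TFB2M*. An alternative sum with mitochondrial ribosomal RNA genes was not run, since those genes are not used here.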
